A study of Mus musculus with 23 samples.

Results

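Transcript levels of MC38 tumors were compared directly with those of B16 tumors. The comparison used 6 of the 15 whole-tumor libraries of a series of 23 samples, chosen by their tumor model alone, with 3 tumors of each model. Of the 2 models, MC38 was taken as the leukocyte-rich one and B16 as the leukocyte-poor one, with *Ptprc* and *Gzmb* as the markers to check. B16 tumors grew from B16-F10, a melanoma line, and MC38 tumors from a colon carcinoma line, both derived from C57BL/6 mice. For both, 500000 cells were placed under the skin of the flank of female C57BL/6JBomTac mice aged 10 to 15 weeks. Hosts of both models were immunocompetent, the labels name no treatment of these tumors, and RNA came from a fragment of about 30 mg of tumors without ulcers. Each model is 1 cell line. Some mice carried tumors in both flanks, and the labels do not tie tumors to mice, so p-values measure only the spread between these tumors.

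Whole-tumor RNA mixes the transcripts of cancer cells with those of every host cell that the fragment holds. Leukocytes carry CD45, the product of *Ptprc*, on their surface, and cytotoxic lymphocytes store granzymes such as the product of *Gzmb* to kill target cells. Interferons made by lymphocytes and other cells switch on antiviral and antigen presentation genes, melanocytes make pigment with enzymes found in few other cells, and fibroblasts lay down the collagens of the stroma. In such RNA, fewer cells of a type and less RNA per cell cannot be told apart.

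Values are counts per 1000000 (CPM) after TMM normalization, given for tumors 1 to 3 of each model in that order, and levels of different genes are compared as RPKM, which is CPM divided by the transcript length in kilobases. Summed counts ran from 10035916 to 20208942 per B16 tumor and from 13385760 to 19124633.5 per MC38 tumor. Differences are log2 fold changes of MC38 over B16, tested by edgeR's quasi-likelihood test with Benjamini-Hochberg adjustment over 14791 genes. The standard error beside each was derived from the test, as the size of the fold change divided by the square root of its F value. To be called, a gene had to pass an adjusted p of 0.05 and differ by 1 or more on the log2 scale. By this rule 2979 genes were higher in MC38, or 20.1% of those tested, and 2233 were higher in B16, or 15.1%. These shares are the background for every gene list below. All 3 MC38 tumors lay above all 3 B16 tumors for 36.9% of genes and below them for 34.5%. Distances between tumors of 1 model ran from 57.3 to 79.1 on the log2 CPM scale and those between models from 219 to 247. Reads were counted without strand, so those of overlapping genes cannot be told apart. Among the genes named here, exon bases were shared with another gene for 79.5% of *Cfb*, 74.0% of *Tnnc2*, 68.7% of *Itgam*, 46.9% of *C2*, 41.7% of *Cxcl11*, 39.5% of *Slc24a5*, 31.5% of *Foxp3*, 29.0% of *Tapbp* and 29.0% of *Gbp6*.

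Pigment cell genes were among those with the widest gaps in favour of B16, and muscle genes among those with the widest gaps in favour of MC38. Of the 12 called genes with the widest gap in favour of B16, 6 are on the melanocyte list. They are *Gpr143*, *Tyr*, *Tyrp1*, *Mlana*, *Slc45a2* and *Dct*. The other 6 were *Gpr158*, *Gsdmc*, *Syt9*, *Foxr2*, *Cmtm5* and *Syt4*. *Gpr158* had 0 counts in all 3 MC38 tumors and 29.5, 35.3 and 16.3 CPM in B16 tumors, at least 156-fold more than the level of 3 counts per library. *Cmtm5* also had no count in MC38 tumors and was at least 63.5-fold higher in B16. *Gsdmc*, which encodes a gasdermin, was at 90.8, 51.2 and 104.67 CPM in B16 tumors and at most 0.0506 CPM in MC38 tumors. *Syt4* encodes a synaptotagmin of vesicle release and was 995 ± 156 CPM in B16 (SD, n = 3) and 0.635 ± 0.570 CPM in MC38.

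Among the 12 called genes with the widest gap in favour of MC38, 5 encode parts of the contractile apparatus of skeletal muscle or are known from it, namely *Xirp2*, *Tnnt3*, *Tnnc2*, *Myh4* and *Myl1*. The other 7 were *Nlrp4c*, *Prl2c2*, *Prl2c3*, *Prl2c4*, *Fam159b*, *Cntn3* and *Atp13a4*. *Nlrp4c*, of the NLR family, had 0 counts in all 3 B16 tumors and 14.0, 13.2 and 11.8 CPM in MC38 tumors, at least 59.5-fold more than the level of 3 counts per library. *Cntn3*, which encodes a contactin, was at 41.9, 44.3 and 42.7 CPM in MC38 and at most 0.104 CPM in B16. *Fam159b* was at 127, 163 and 103 CPM in MC38 and at most 0.205 CPM in B16. The *Prl2c* genes encode proliferins and are near-identical copies of each other, so reads may have been split among them. The gap of *Prl2c3* was wide in all 3 MC38 tumors, at 96.6, 32.6 and 126 CPM in MC38 and at most 0.208 CPM in B16.

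**Figure D1:**
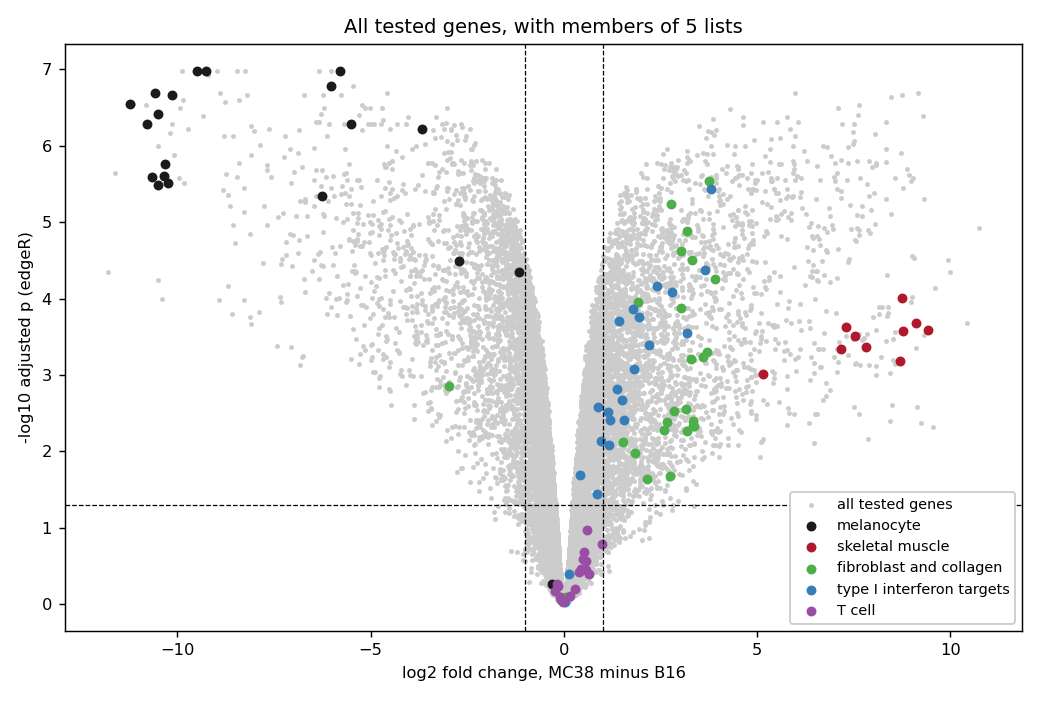
Each grey point is 1 of 14791 tested genes, placed by its log2 fold change (MC38 minus B16, x axis) and the -log10 of its adjusted p (edgeR, y axis). Coloured points are members of 5 gene lists and dashed lines mark the call rule. Melanocyte genes lie far to the left and skeletal muscle genes far to the right, while T cell genes stay below the line of an adjusted p of 0.05.

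Genes of the pigment cell lineage were abundant in B16 tumors and near 0 in MC38 tumors, as the label of B16 as a melanoma has it. Of 20 melanocyte genes, 19 were higher in B16, with a median log2 fold change of -9.81 beside 0.04 over all tested genes. Those that passed the filter on low counts through B16 alone had to differ, so this count is a description. *Tyr* encodes tyrosinase, the rate-limiting enzyme of melanin synthesis, and stood at 983, 987 and 716 CPM in B16 tumors 1 to 3 and 0.304, 0.907 and 0.216 CPM in MC38 tumors 1 to 3. The groups were far apart (log2 -10.78 ± 0.36, adjusted p = 5.1e-07). *Pmel*, which builds the fibrils of melanosomes, had the highest RPKM on the list, with a mean level of 3895 RPKM in B16 and 3.15 RPKM in MC38. *Dct*, an enzyme that acts after tyrosinase, was at 8195, 9023 and 7337 CPM in B16 tumors and 3.06, 10.3 and 3.28 CPM in MC38 tumors. *Tyrp1*, another such enzyme, was at 6541, 6012 and 5354 CPM and 1.87, 6.70 and 2.20 CPM. MC38 tumor 2 was the highest MC38 tumor for all 3 enzymes and still far below every B16 tumor. The lineage regulators *Sox10* (log2 -10.14 ± 0.26, adjusted p = 2.2e-07) and *Mitf* (log2 -6.26 ± 0.36, adjusted p = 4.5e-06) were also higher in B16. *Mitf* still had 14.7, 7.38 and 9.04 CPM in MC38 tumors. *Met*, the receptor of hepatocyte growth factor, was at 2566, 2336 and 1998 CPM in B16 and 60.1, 44.7 and 46.6 CPM in MC38. *Kit* (log2 -2.72 ± 0.23, adjusted p = 3.2e-05) and *Pax3* (log2 -3.67 ± 0.13, adjusted p = 6.0e-07) differed less. *Ednrb*, an endothelin receptor, was the 1 member not called (log2 -0.31 ± 0.43, adjusted p = 0.54). Without MC38 tumor 1 it was lower in MC38 (log2 -1.002, adjusted p = 0.017).

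MITF is known to bind the M-box, TCATGTG, before pigment genes. This motif was searched on both strands in the 250 bases before the start of each RefSeq gene of GRCm38.p6, which is mm10, and was found in 3.25% of 32851 such windows. Of the 12 melanocyte genes called higher in B16 that had an entry, 5 held it, namely *Tyr*, *Tyrp1*, *Dct*, *Slc24a5* and *Mc1r*. Below are the windows of the 3 with the widest gap among genes with an entry, since their RNA differed most between the tumors. Capitals mark the M-box on either strand, and the match lies 22 to 16 bases before the start of *Tyr*, 47 to 41 before that of *Tyrp1*, and 232 to 226 and 151 to 145 before that of *Dct*.
Tyr (chr7:87493513-87493762, minus strand): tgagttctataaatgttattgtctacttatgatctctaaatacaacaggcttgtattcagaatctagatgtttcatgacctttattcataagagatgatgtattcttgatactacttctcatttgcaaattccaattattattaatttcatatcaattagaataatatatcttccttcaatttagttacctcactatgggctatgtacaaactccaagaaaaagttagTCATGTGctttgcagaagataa
Tyrp1 (chr4:80833963-80834212, plus strand): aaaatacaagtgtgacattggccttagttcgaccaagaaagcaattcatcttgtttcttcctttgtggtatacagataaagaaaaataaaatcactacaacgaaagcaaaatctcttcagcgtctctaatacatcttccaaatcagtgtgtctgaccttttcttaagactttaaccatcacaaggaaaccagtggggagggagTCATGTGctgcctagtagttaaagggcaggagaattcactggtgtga
Dct (chr14:118052247-118052496, minus strand): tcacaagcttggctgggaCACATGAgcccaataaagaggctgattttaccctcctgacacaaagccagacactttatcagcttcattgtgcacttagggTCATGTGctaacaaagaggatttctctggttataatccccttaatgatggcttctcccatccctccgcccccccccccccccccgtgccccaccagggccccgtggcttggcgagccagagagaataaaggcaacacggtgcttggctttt
A match describes the letters alone and shows no binding in these tumors.

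Other neural crest and glial genes followed the melanocyte genes in part. Of 10 tested, 6 were higher in B16 and 3 in MC38. *S100b*, a calcium-binding protein of glia and melanocytes, was 94.5, 169 and 74.4 CPM in B16 and 0.329, 0.302 and 0.432 CPM in MC38. *Cdh19*, a cadherin of the neural crest, was 93.1, 93.1 and 68.9 CPM in B16 and 0.203, 0.151 and 0.216 CPM in MC38. *Mbp*, which encodes a myelin protein, was higher in B16 as well (log2 -4.82 ± 0.45, adjusted p = 5.2e-05). In the other direction, *Sox9*, a regulator of neural crest, cartilage and gut stem cells, was 12.2, 35.6 and 13.9 CPM in B16 and 165, 157 and 134 CPM in MC38 (log2 2.87 ± 0.38, adjusted p = 3.4e-04).

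The defining markers of colon epithelium were low in both models, MC38 with its label of colon carcinoma included, except *Krt8* in MC38 tumor 1. *Epcam*, an epithelial adhesion molecule, reached at most 0.288 CPM in MC38 and 0.416 CPM in B16. *Cdx2*, the intestinal regulator, reached at most 0.302 CPM in MC38. The intestinal brush border gene *Vil1* stood at 1.40, 1.58 and 1.85 CPM in B16 and 0.987, 1.06 and 0.612 CPM in MC38 (not called). Of 20 listed genes, 11 had enough counts to be tested. Of these, 4 (36.4%) were higher in MC38 and 2 (18.2%) in B16, against 20.1% and 15.1% of all tested genes. Without any 1 B16 tumor or MC38 tumor 1, 2 were higher in MC38. With B16 tumor 1, B16 tumor 3, MC38 tumor 2 or MC38 tumor 3 left out, 1 was higher in B16. *Elf3*, an epithelial transcription factor, was higher in MC38, at 4.48, 6.30 and 4.21 CPM and at most 0.0633 CPM in B16. *Cdh17*, an intestinal cadherin, was at 4.96, 1.69 and 3.28 CPM in MC38 and 0.727, 0.285 and 0.436 CPM in B16 (log2 2.77 ± 0.50, adjusted p = 0.0017). *Krt8*, a keratin of simple epithelia, was 57.6, 4.23 and 2.99 CPM in MC38 and 3.07, 3.64 and 1.69 CPM in B16. Its call rested on MC38 tumor 1 and was lost without that tumor (log2 0.38, adjusted p = 0.44), as it was without B16 tumor 1 (log2 2.97, adjusted p = 0.11), B16 tumor 2 (log2 3.19, adjusted p = 0.11) or B16 tumor 3 (log2 2.66, adjusted p = 0.14). *Tjp3*, of tight junctions, was higher in B16 (log2 -2.57 ± 0.23, adjusted p = 4.3e-05).

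Wnt pathway genes differed in both directions. Wnt ligands stabilize β-catenin, the product of *Ctnnb1*, which acts with TCF and LEF factors on targets such as *Axin2*, itself an inhibitor of the pathway. Of 17 tested genes, 8 (47.1%) were higher in MC38 and 3 (17.6%) in B16, against 20.1% and 15.1% of all tested genes. *Axin2* was 39.5, 50.7 and 37.2 CPM in B16 tumors 1 to 3 and 2.23, 2.24 and 2.41 CPM in MC38 tumors 1 to 3, and *Ctnnb1* was 2049.6, 1993 and 1766 CPM in B16 and 448, 390.1 and 396 CPM in MC38. Neither gene overlapped between the models (log2 -4.20 ± 0.18, adjusted p = 1.4e-06 for *Axin2* and log2 -2.23 ± 0.12, adjusted p = 2.9e-06 for *Ctnnb1*). *Dkk3*, a secreted member of the Dickkopf family, was also higher in B16 (log2 -4.92 ± 0.50, adjusted p = 8.0e-05). The ligand *Wnt10a* (log2 4.28 ± 0.46, adjusted p = 1.1e-04), the transcription factor *Lef1* (log2 4.84 ± 0.27, adjusted p = 4.2e-06), the membrane inhibitor *Apcdd1* (log2 4.11 ± 0.25, adjusted p = 5.7e-06) and the secreted inhibitor *Sfrp2* (log2 3.91 ± 0.93, adjusted p = 0.0067) were higher in MC38. *Lef1* had 0.572, 0.602 and 0.693 CPM in B16 and 14.7, 23.8 and 19.3 CPM in MC38. *Wnt7b* was high in MC38 tumor 1 alone, at 26.6 CPM, and between 0.770 and 1.14 CPM in the other 5 tumors, and it was not called (log2 3.37 ± 1.31, adjusted p = 0.052). It was called without MC38 tumor 2 (log2 3.91, adjusted p = 0.014) or MC38 tumor 3 (log2 3.90, adjusted p = 0.015).

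*Cdkn2a* and *Cdkn2b*, neighbouring genes whose products hold back the cell cycle at its start, were near 0 in B16. *Cdkn2a* stood at 0.260, 0.348 and 0.231 CPM in B16 tumors 1 to 3 and 7.06, 7.53 and 7.16 CPM in MC38 tumors 1 to 3, and *Cdkn2b* at 0.416, 0.507 and 0.385 CPM in B16 tumors 1 to 3 and 9.70, 15.8 and 14.0 CPM in MC38 tumors 1 to 3. Both were called (log2 4.50 ± 0.28, adjusted p = 6.9e-06 and log2 4.86 ± 0.30, adjusted p = 7.0e-06). *Cdkn2c*, a related inhibitor elsewhere in the genome, was higher in B16 (log2 -1.46 ± 0.13, adjusted p = 3.6e-05). *Mtap*, next to *Cdkn2a*, was at 154, 111 and 158 CPM in B16 and 274, 349 and 260.2 CPM in MC38, and its call was lost without B16 tumor 2 (log2 0.87, adjusted p = 0.0029) or MC38 tumor 2 (log2 0.92, adjusted p = 0.0016). *Trp53* was the list's member with the highest RPKM and was not called (log2 0.47 ± 0.13, adjusted p = 0.015). Of the 12 suppressors 3 (25%) were higher in MC38 and 1 (8.33%) in B16, against 20.1% and 15.1% of all tested genes. The number higher in B16 was 3 without B16 tumor 3 or MC38 tumor 1 and 2 without B16 tumor 2. *Rb1* was not called (log2 0.42 ± 0.17, adjusted p = 0.061). Of 8 mismatch repair genes, *Pms2* was higher in MC38 (log2 1.17 ± 0.15, adjusted p = 3.3e-04) and *Mlh3* in B16 (log2 -1.49 ± 0.14, adjusted p = 5.3e-05). Each is 12.5% of that list, against 20.1% and 15.1% of all tested genes.

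Of 22 genes of dividing cells, 1 was higher in MC38 and 1 in B16, and their median log2 fold change was -0.07. Without B16 tumor 2, 2 were higher in B16. Cyclin D1, *Ccnd1*, was higher in MC38, at 680.2, 688 and 606 CPM against 314, 272 and 285 CPM in B16 (log2 1.18 ± 0.10, adjusted p = 3.6e-05). The replication helicase subunit *Mcm2* was higher in B16 (log2 -1.41 ± 0.16, adjusted p = 1.7e-04). *Mki67* was 376.98, 248 and 315 CPM in B16 and 267, 203 and 189 CPM in MC38, and the models overlapped. Among 23 hypoxia and glycolysis genes, 3 were higher in MC38 and 5 in B16, with a median of -0.69. All 3 MC38 tumors lay below all 3 B16 tumors for 15 of the 23, and for 34.5% of all tested genes. The glycolytic enzymes *Aldoa* (log2 -1.27 ± 0.13, adjusted p = 7.6e-05), *Tpi1* (log2 -1.42 ± 0.10, adjusted p = 1.2e-05) and *Pgk1* (log2 -1.57 ± 0.09, adjusted p = 6.2e-06) and the vasodilator *Adm* (log2 -1.86 ± 0.43, adjusted p = 0.0060) were higher in B16. The prolyl hydroxylase *Egln3* (log2 2.85 ± 0.21, adjusted p = 1.5e-05), *Ndrg1* (log2 1.73 ± 0.24, adjusted p = 4.1e-04) and the lactate exporter *Slc16a3* (log2 1.39 ± 0.11, adjusted p = 2.8e-05) were higher in MC38. *Gapdh*, which has many near-identical copies in the genome, was counted at 36.6, 32.1 and 30.5 CPM in B16 and 20.5, 19.5 and 21.2 CPM in MC38, and is uncertain for that reason.

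**Figure D2:**
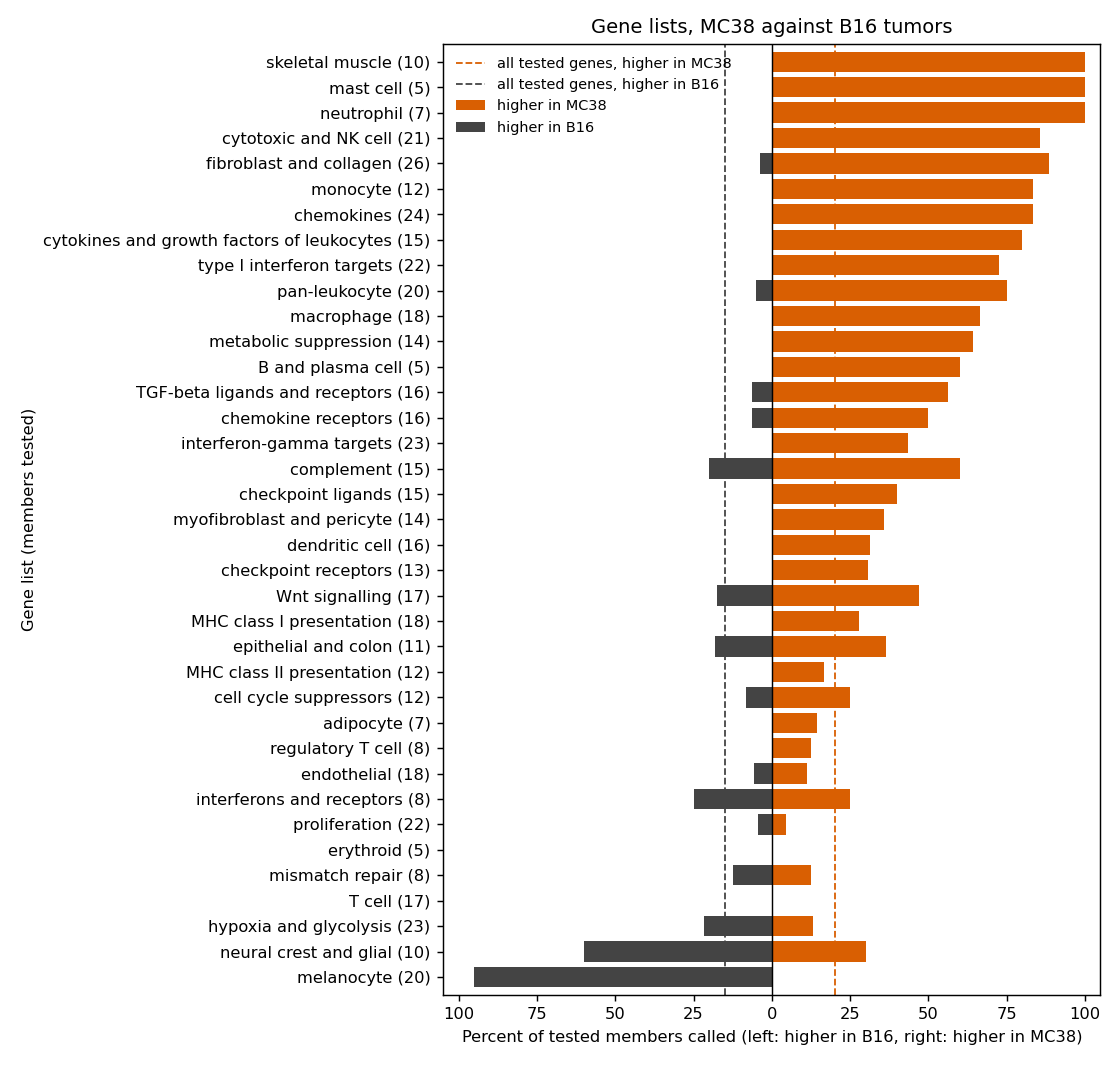
Bars give the percent of the tested members of each gene list (y axis, number tested in brackets) called higher in MC38 (right, orange) or higher in B16 (left, grey). Dashed lines mark the same shares over all tested genes, 20.1% and 15.1%. All tested skeletal muscle, mast cell and neutrophil genes were called higher in MC38, 19 of 20 melanocyte genes were higher in B16, and no T cell gene was called.

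Leukocyte transcripts were more abundant in MC38 tumors, with *Ptprc* and *Gzmb* both higher. *Ptprc* (chr1:138062859-138175305, minus strand, mm10) stood at 27.9, 47.3 and 32.5 CPM in B16 tumors 1 to 3 and 106, 84.1 and 128 CPM in MC38 tumors 1 to 3. The lowest MC38 tumor was above the highest B16 tumor (log2 1.55 ± 0.22, adjusted p = 5.3e-04). *Gzmb* (chr14:56258836-56262334, minus strand) was 21.0, 36.6 and 24.1 CPM in B16 tumors 1 to 3 and 59.1, 69.6 and 61.2 CPM in MC38 tumors 1 to 3, also without overlap (log2 1.21 ± 0.20, adjusted p = 0.0011). The *Gzmb* call was lost without B16 tumor 1, where its log2 fold change was 1.00 and lay under the threshold before rounding (adjusted p = 0.0052), and in a fit of all 15 tumors of the series, whose spread is shared over 5 models (log2 1.20, adjusted p = 0.13). Of 20 pan-leukocyte genes, 15 were higher in MC38 and 1 in B16, with a median of 1.18. *Nckap1l*, of the leukocyte cytoskeleton, had the widest gap in favour of MC38 (log2 1.70 ± 0.13, adjusted p = 2.0e-05). The gene higher in B16 was *Arhgap30*, a regulator of small GTPases, at 255, 245 and 225 CPM in B16 and 76.1, 53.6 and 71.9 CPM in MC38 (log2 -1.85 ± 0.14, adjusted p = 2.0e-05). *Ptpn6* and *Cyba* were not called (log2 -0.37 ± 0.17, adjusted p = 0.087 and log2 0.20 ± 0.23, adjusted p = 0.45). With 1 tumor left out in turn, 11 to 17 of the 20 genes were higher in MC38.

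Macrophage and monocyte genes were higher in MC38 tumors as well. Of 18 macrophage genes, 12 were higher in MC38 and none in B16. *Csf1r*, the receptor that keeps macrophages alive, was 39.5, 73.2 and 66.2 CPM in B16 and 181, 95.5 and 193 CPM in MC38 (log2 1.39 ± 0.31, adjusted p = 0.0047). *C1qa*, a chain of the complement starter C1q and the list's member with the highest RPKM, was 119.6, 248 and 216 CPM in B16 and 478, 443 and 735 CPM in MC38 (log2 1.504 ± 0.29, adjusted p = 0.0025). *Cd14*, a receptor for bacterial lipopolysaccharide, differed most, from 3.74, 7.41 and 9.83 CPM to 90.3, 24.8 and 42.1 CPM (log2 2.87 ± 0.52, adjusted p = 0.0017). *Ms4a7* (log2 2.04 ± 0.30, adjusted p = 5.7e-04) and the Fc receptor *Fcgr1* (log2 1.76 ± 0.13, adjusted p = 1.6e-05) followed. *Adgre1*, which encodes F4/80, was called (log2 1.10 ± 0.20, adjusted p = 0.0019) but not without B16 tumor 1 (log2 0.95, adjusted p = 0.014) or MC38 tumor 3 (log2 0.89, adjusted p = 0.0033). *Mrc1*, *Cd163* and *Lyz2* overlapped between the models and were not called. *Mrc1* (log2 1.30, adjusted p = 0.0044) and *Lyz2* (log2 1.49, adjusted p = 0.0012) were called without MC38 tumor 2, and *Cd163* without B16 tumor 3 (log2 3.45, adjusted p = 0.0017).

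Of 12 monocyte genes, 10 were higher in MC38. *Ly6c2*, the marker of inflammatory monocytes, was 3.59, 7.44 and 9.63 CPM in B16 tumors 1 to 3 and 26.6, 56.3 and 36.3 CPM in MC38 tumors 1 to 3 (log2 2.49 ± 0.38, adjusted p = 7.4e-04). *Ms4a4c* (log2 2.54 ± 0.18, adjusted p = 1.4e-05), *Plac8* (log2 2.16 ± 0.26, adjusted p = 1.9e-04) and the integrin *Itgam* (log2 1.89 ± 0.21, adjusted p = 1.3e-04) were higher as well. *Ccr2*, the receptor that brings monocytes out of the marrow, did not overlap but was not called (log2 0.86 ± 0.28, adjusted p = 0.025), and it was called without B16 tumor 3 (log2 1.21, adjusted p = 0.0041).

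Some neutrophil and dendritic cell genes were higher in MC38. Of 12 neutrophil genes 7 had enough counts to be tested, and these 7 were higher in MC38. A gene that passes the filter on low counts through 1 model alone has to differ, so counts over such short lists are a description. *S100a8*, an alarmin of neutrophils, was 0.104, 0.127 and 0.103 CPM in B16 and 2.25, 0.554 and 1.19 CPM in MC38, and *Ly6g*, which was not tested, was at most 0.396 CPM in any tumor. *Mmp9*, a gelatinase that macrophages and cancer cells also make, was 0.727, 4.47 and 2.54 CPM in B16 and 32.0, 64.8 and 54.7 CPM in MC38 (log2 4.20 ± 0.49, adjusted p = 1.7e-04). *Csf3r*, the receptor of a neutrophil growth factor, was 3.27, 7.19 and 5.78 CPM and 16.9, 12.9 and 19.8 CPM (log2 1.58 ± 0.29, adjusted p = 0.0020), and no other gene of the list exceeded 7.95 CPM in any tumor. The receptor *Cxcr2* was at most 0.104 CPM in B16 and at 1.60, 0.756 and 0.864 CPM in MC38. Without MC38 tumor 1, 4 neutrophil genes were called and *S100a8* was too low to be tested. Of 16 dendritic cell genes, 5 (31.25%, against 20.1% of all tested genes) were higher in MC38 and none in B16. The number higher in MC38 fell to 1 without B16 tumor 1, to 2 without B16 tumor 2 or MC38 tumor 3, and to 3 without MC38 tumor 1, when *Ccl22* was called higher in B16. *Itgax*, which encodes CD11c, was 10.8, 17.9 and 11.7 CPM in B16 and 33.8, 42.1 and 47.9 CPM in MC38 (log2 1.61 ± 0.22, adjusted p = 4.1e-04). The defining genes *Flt3* (log2 -0.50 ± 0.43, adjusted p = 0.33) and *Zbtb46* (log2 0.89 ± 0.21, adjusted p = 0.0073) were not called.

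No T cell gene passed the call rule. Of 17 tested, all overlapped between the models, edgeR gave an unadjusted p under 0.05 for 0 of them, and DESeq2 also called 0. *Cd3e*, of the T cell receptor complex, was 4.42, 14.1 and 6.03 CPM in B16 tumors 1 to 3 and 7.98, 6.95 and 8.78 CPM in MC38 tumors 1 to 3 (log2 -0.067 ± 0.40, adjusted p = 0.89). *Cd8a*, of cytotoxic T cells, was 5.14, 21.9 and 4.11 CPM in B16 and 22.8, 16.02 and 23.6 CPM in MC38 (log2 0.99 ± 0.58, adjusted p = 0.16). *Cd4*, of helper T cells and some myeloid cells, was 1.92, 2.85 and 3.26 CPM in B16 and 3.11, 2.95 and 5.80 CPM in MC38 (log2 0.53 ± 0.35, adjusted p = 0.21). B16 tumor 2 was above both other B16 tumors for each of *Cd3e*, *Cd3g*, *Cd8a* and *Cd8b1*. Without it, 5 T cell genes were called higher in MC38, among them *Cd8a* (log2 2.13, adjusted p = 7.1e-04), *Cd8b1* (log2 1.98, adjusted p = 0.0027), *Cd3g* (log2 1.47, adjusted p = 0.0066) and *Zap70* (log2 1.21, adjusted p = 0.0048), while *Cd3e* was not (log2 0.53, adjusted p = 0.10). Of 8 regulatory T cell genes, *Icos* alone was called (log2 1.51 ± 0.45, adjusted p = 0.019), and this was lost without B16 tumor 1 (log2 1.15, adjusted p = 0.059), B16 tumor 3 (log2 1.40, adjusted p = 0.068) or MC38 tumor 1 (log2 1.39, adjusted p = 0.054). *Ccr8*, a chemokine receptor (log2 1.07 ± 0.43, adjusted p = 0.056), was called beside it without B16 tumor 2 (log2 1.38, adjusted p = 0.049) or MC38 tumor 2 (log2 1.26, adjusted p = 0.043). *Foxp3*, the factor that defines these cells, was 14.5, 14.1 and 17.7 CPM in B16 and 13.9, 12.2 and 12.96 CPM in MC38 (log2 -0.25 ± 0.16, adjusted p = 0.20). Part of the exon bases of *Foxp3* is shared with another gene, so its level may include reads of that gene.

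Cytotoxic and NK cell genes were higher in MC38, granzymes C to F among them. Of 21 tested, 18 were higher in MC38 and none in B16, with a median of 1.56. *Gzmc* was 8.73, 8.203 and 8.45 CPM in B16 tumors 1 to 3 and 40.6, 79.7 and 64.4 CPM in MC38 tumors 1 to 3, with no overlap (log2 2.86 ± 0.25, adjusted p = 3.5e-05). *Gzmf* (log2 4.31 ± 0.39, adjusted p = 4.6e-05), *Gzme* (log2 2.56 ± 0.38, adjusted p = 5.9e-04) and *Gzmd* (log2 2.51 ± 0.31, adjusted p = 2.3e-04) are neighbours of *Gzmc* and similar in sequence, so reads may have been shared among them. *Eomes*, a T-box factor of NK and memory T cells, was 2.34, 3.80 and 2.44 CPM in B16 and 18.1, 27.7 and 26.2 CPM in MC38 (log2 3.04 ± 0.26, adjusted p = 3.5e-05). The NK receptor *Klrb1c* (log2 1.73 ± 0.35, adjusted p = 0.0029) was low in both models, and was not called in the fit of all 15 tumors (log2 1.73, adjusted p = 0.058). *Ncr1*, another NK receptor, was 0.779, 0.222 and 0.488 CPM in B16 and 1.01, 2.32 and 1.15 CPM in MC38 (log2 1.56 ± 0.51, adjusted p = 0.028). The *Ncr1* call was lost without B16 tumor 2 (log2 1.16, adjusted p = 0.10), B16 tumor 3 (log2 1.55, adjusted p = 0.086) or MC38 tumor 2 (log2 1.09, adjusted p = 0.091). *Prf1*, which encodes the pore former perforin, was called (log2 1.10 ± 0.22, adjusted p = 0.0029) but not without B16 tumor 1 (log2 0.85, adjusted p = 0.0076) or in the fit of all 15 tumors (log2 1.09, adjusted p = 0.12). Without that tumor 11 members of the list were called, and 7 in the fit of all 15 tumors.

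B cell and mast cell genes were low but differed by large factors. *Cd79a*, of the B cell receptor, was 0.156, 0.222 and 0.359 CPM in B16 tumors 1 to 3 and 5.04, 7.05 and 6.70 CPM in MC38 tumors 1 to 3 (log2 4.42 ± 0.33, adjusted p = 1.6e-05). *Pax5*, the regulator of B cell identity, had 0 counts in all 3 B16 tumors and 2.68, 2.82 and 2.09 CPM in MC38 tumors, at least 11.6-fold more than the level of 3 counts per library. The B cell surface marker *Ms4a1* was at most 0.454 CPM in any tumor and was not tested. Of 12 B and plasma cell genes 5 were tested and 3 of them were higher in MC38. Of 8 mast cell genes 5 were tested, and these 5 were higher in MC38. The tryptase *Tpsb2* was 0.312, 0.665 and 2.59 CPM in B16 and 8.61, 23.4 and 27.4 CPM in MC38 (log2 3.89 ± 0.69, adjusted p = 0.0015). The carboxypeptidase *Cpa3* was 0, 0.0317 and 0.950 CPM and 3.01, 5.44 and 9.04 CPM (log2 3.81 ± 0.87, adjusted p = 0.0056). *Hdc*, which makes histamine, was 0.572, 1.36 and 1.39 CPM and 9.19, 13.6 and 10.4 CPM (log2 3.23 ± 0.32, adjusted p = 7.7e-05). Tumor 3 was the highest of the B16 tumors for *Tpsb2* and *Cpa3*, and the models still did not overlap. The IgE receptor chain *Ms4a2*, which was not tested, was at most 0.648 CPM.

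**Figure D3:**
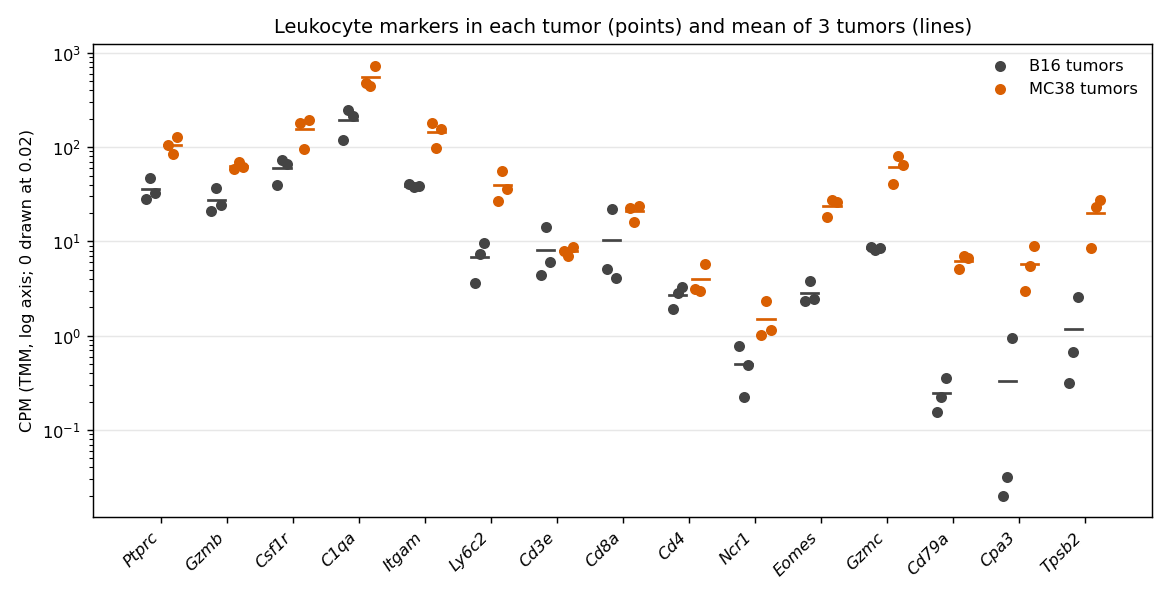
Each point is 1 tumor (B16 grey, MC38 orange) and lines mark the mean of 3 tumors, in CPM on a log axis, for 15 leukocyte genes, with a level of 0 drawn at 0.02. *Ptprc*, *Gzmb*, *Csf1r* and *Gzmc* separate the models, while *Cd3e*, *Cd8a* and *Cd4* overlap, with B16 tumor 2 the highest B16 tumor for *Cd3e* and *Cd8a*.

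Leukocyte genes were next scaled to leukocyte transcripts in place of all transcripts, to ask which of them differed beyond leukocyte transcripts in general. The library size was replaced by the summed counts of the 20 pan-leukocyte genes, by those of the 17 genes without *Arhgap30*, *Ptpn6* and *Cyba*, or by *Ptprc* alone. These references differ, since the median of T cell genes was -0.20, -0.74 and -1.07 under them in turn. The sum over 17 genes was chosen after seeing the data. Over all tested genes 7.61% were called higher in MC38 and 34.1% lower under every reference. All genes called higher under *Ptprc* or lower under the full list were also called under the other references, which thus added no further support. Under every reference 5 of 5 mast cell, 3 of 21 cytotoxic and NK cell, 3 of 7 neutrophil, 2 of 12 monocyte, 2 of 5 B cell and 1 of 18 macrophage genes were higher in MC38. Members that passed the filter on low counts through MC38 alone were bound to lean this way. The counts for mast cell, neutrophil and B cell genes are therefore a description. The cytotoxic genes were *Gzmf*, *Eomes* and *Gzmc*, with log2 fold changes against the full list of 3.70, 2.44 and 2.23, and against *Ptprc* of 2.85, 1.55 and 1.31. The myeloid genes were *Cd14* (2.20 and 1.30), *Ly6c2* (1.93 and 1.03), *Ms4a4c* (1.91 and 1.00), *Mmp9* (3.68 and 2.83), *Cxcr2* and *S100a8*. *Pax5* and *Cd79a* were the B cell genes. *Gzmb* was not among them (0.60 and -0.29). Of 16 dendritic cell genes, 3 were lower in MC38 under every reference, a smaller share than the 34.1% of all tested genes. They were *Irf8*, *Flt3* and *Ccl22*, with log2 fold changes against *Ptprc* of -2.04, -2.09 and -2.33. *Cd3e* was -1.52 against *Ptprc* and -0.67 against the full list, and only the former passed the rule. This fit estimated 1 spread for all genes, so its p-values cannot be set beside those of the fit on all transcripts and are not given. The calls of this paragraph rest on them.

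Genes for chemokines, which draw leukocytes into tissue, were higher in MC38 for 20 of 24 tested members and in B16 for none. The CXCR2 ligands *Cxcl1* (log2 5.80 ± 0.64, adjusted p = 1.3e-04) and *Cxcl3* (log2 4.81 ± 0.65, adjusted p = 3.7e-04) were near 0 in B16. *Cxcl1* was 0.104, 0.887 and 0.488 CPM in B16 tumors 1 to 3 and 52.6, 15.2 and 24.5 CPM in MC38 tumors 1 to 3, with MC38 tumor 1 the highest. *Ccl2*, which attracts monocytes, was 30.2, 22.1 and 21.6 CPM in B16 and 187, 211 and 200.2 CPM in MC38 (log2 3.02 ± 0.15, adjusted p = 2.4e-06). *Cx3cl1*, a membrane-bound attractant, was 4.73, 8.99 and 6.19 CPM and 55.4, 81.6 and 75.3 CPM (log2 3.39 ± 0.25, adjusted p = 1.5e-05). For these genes no MC38 tumor came down to the level of a B16 tumor. *Ccl5*, which T cells and myeloid cells release, was 6.29, 15.5 and 11.96 CPM and 34.7, 66.6 and 49.6 CPM (log2 2.14 ± 0.34, adjusted p = 8.9e-04). Of the 4 that were not called, *Ccl3* was log2 0.47 ± 0.35, adjusted p = 0.27 and *Ccl8* was log2 0.64 ± 0.31, adjusted p = 0.10. *Ccl6* was called higher without MC38 tumor 2 (log2 1.55, adjusted p = 0.0090) and *Ccl22* lower without MC38 tumor 1 (log2 -1.22, adjusted p = 0.0082). Of 16 tested chemokine receptors, 8 were higher in MC38, or 4 without B16 tumor 1. *Cxcr3*, the receptor of CXCL9 to CXCL11, was the 1 receptor higher in B16, at 16.9, 16.1 and 20.3 CPM against 3.87, 1.91 and 3.10 CPM (log2 -2.58 ± 0.27, adjusted p = 1.0e-04). The scavenging receptors *Ackr3* (log2 2.49 ± 0.49, adjusted p = 0.0028) and *Ackr2* (log2 3.46 ± 0.80, adjusted p = 0.0061) were higher in MC38.

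Of 15 tested cytokines and growth factors of leukocytes, 12 were higher in MC38. The CSF1 receptor has 2 known ligands, and both were higher. *Csf1* was 44.5, 56.3 and 51.0 CPM in B16 tumors 1 to 3 and 199, 167 and 162 CPM in MC38 tumors 1 to 3 (log2 1.80 ± 0.13, adjusted p = 1.3e-05), and *Il34* was 1.20, 1.65 and 1.08 CPM in B16 and 36.2, 33.7 and 26.8 CPM in MC38 (log2 4.604 ± 0.23, adjusted p = 2.4e-06). *Lif*, of the interleukin-6 family, was 0.883, 2.12 and 2.59 CPM and 63.3, 31.4 and 45.2 CPM (log2 4.53 ± 0.38, adjusted p = 3.0e-05), and the related *Osm* was higher too (log2 3.11 ± 0.51, adjusted p = 0.0011). *Il1b* was 1.20, 2.06 and 2.93 CPM in B16 and 34.9, 12.04 and 25.1 CPM in MC38 (log2 3.47 ± 0.45, adjusted p = 3.1e-04), with MC38 tumor 2 the lowest MC38 tumor. *Il15*, which sustains NK cells and CD8 T cells, was 2.44, 2.15 and 1.13 CPM and 9.54, 10.4 and 10.7 CPM (log2 2.44 ± 0.30, adjusted p = 2.3e-04). The alarmin *Il33* was 3.48, 10.2 and 10.7 CPM and 60.3, 22.9 and 39.6 CPM (log2 2.29 ± 0.45, adjusted p = 0.0028). *Il12b* (log2 -0.39 ± 0.33, adjusted p = 0.33) and *Il18* (log2 -0.68 ± 0.24, adjusted p = 0.039) were not called. *Il6*, *Csf2* and *Csf3* were not tested and reached at most 2.30 CPM, 0.260 CPM and 0.405 CPM.

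Complement genes split by member. Of 15 tested, 9 were higher in MC38 and 3 in B16, or 1 in B16 without B16 tumor 2 or MC38 tumor 2. *C2*, a protease of the classical pathway, was the list's member with the highest RPKM and was 330.2, 456 and 251 CPM in B16 and 31.7, 24.9 and 40.3 CPM in MC38 (log2 -3.42 ± 0.26, adjusted p = 2.0e-05). *C1s1* (log2 2.49 ± 0.47, adjusted p = 0.0021), *Serping1* (log2 1.73 ± 0.47, adjusted p = 0.012), *Cfp* (log2 1.71 ± 0.25, adjusted p = 6.3e-04) and *Cfb* (log2 1.65 ± 0.19, adjusted p = 1.8e-04) were higher in MC38. *C3* was 50.1, 78.5 and 102 CPM in B16 and 248, 104.76 and 250.1 CPM in MC38 (log2 1.38 ± 0.36, adjusted p = 0.011). *C4b* was called higher in B16 (log2 -1.08 ± 0.30, adjusted p = 0.014), but not without B16 tumor 2 (log2 -0.89, adjusted p = 0.049) or MC38 tumor 2 (log2 -0.81, adjusted p = 0.0095).

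Interferon targets ran from large gains in MC38 to smaller differences in favour of B16 that did not reach the call rule. Of 23 interferon-gamma targets, 10 were higher in MC38 and none in B16, with a median of 0.62. *Ido1*, which breaks down tryptophan, was 0.0520, 0.190 and 0.180 CPM in B16 tumors 1 to 3 and 33.5, 24.1 and 22.5 CPM in MC38 tumors 1 to 3 (log2 7.18 ± 0.31, adjusted p = 1.5e-06). *Cxcl10*, a ligand of CXCR3 and the list's member with the highest RPKM, was 67.7, 83.2 and 87.1 CPM in B16 and 528, 682 and 551 CPM in MC38 (log2 2.88 ± 0.15, adjusted p = 2.9e-06). *Cxcl11*, a related chemokine gene whose protein was not measured, was 1.04, 0.380 and 0.411 CPM and 8.63, 12.4 and 8.10 CPM (log2 4.10 ± 0.41, adjusted p = 7.2e-05). *Ubd* (log2 3.41 ± 0.58, adjusted p = 0.0012), the guanylate-binding protein *Gbp5* (log2 2.46 ± 0.22, adjusted p = 4.1e-05) and the signalling brake *Socs1* (log2 2.18 ± 0.27, adjusted p = 2.5e-04) were higher too. *Cxcl9* was 31.9, 83.1 and 37.2 CPM in B16 and 147, 94.9 and 163 CPM in MC38 (log2 1.40 ± 0.37, adjusted p = 0.011), a call that the fit of all 15 tumors did not give (log2 1.39, adjusted p = 0.13). The GTPases *Igtp* (log2 -0.008 ± 0.17, adjusted p = 0.97) and *Iigp1* (log2 0.025 ± 0.20, adjusted p = 0.92) were not called, nor were *Gbp6* (log2 -0.72 ± 0.19, adjusted p = 0.011) and *Wars* (log2 -0.55 ± 0.09, adjusted p = 0.0012), for which all 3 B16 tumors lay above all 3 MC38 tumors.

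Type I interferon targets were higher in MC38 for 16 of 22 members and in B16 for none, with a median of 1.47. *Oas3*, a sensor of double-stranded RNA, was 14.5, 15.7 and 11.8 CPM in B16 tumors 1 to 3 and 172, 248 and 161 CPM in MC38 tumors 1 to 3 (log2 3.79 ± 0.21, adjusted p = 3.7e-06). *Oasl1* (log2 3.65 ± 0.33, adjusted p = 4.3e-05), *Ifi44* (log2 3.17 ± 0.41, adjusted p = 2.8e-04) and *Oas2* (log2 2.80 ± 0.28, adjusted p = 8.3e-05) followed. *Isg15*, a ubiquitin-like modifier with the list's highest RPKM, was 56.1, 56.8 and 34.6 CPM in B16 and 155, 324 and 200.1 CPM in MC38 (log2 2.21 ± 0.30, adjusted p = 4.0e-04). *Irf7*, which amplifies the response, was 73.3, 82.4 and 51.4 CPM and 201, 329 and 261 CPM (log2 1.93 ± 0.23, adjusted p = 1.8e-04). MC38 tumor 2 was the highest of the 6 tumors for each of these 6 genes, *Oas3*, *Oasl1*, *Ifi44*, *Oas2*, *Isg15* and *Irf7*. *Ifit3*, another antiviral gene, was not called (log2 0.028 ± 0.29, adjusted p = 0.94).

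Upstream of these targets, *Ifng* was 1.04, 2.41 and 1.08 CPM in B16 and 3.11, 2.95 and 4.03 CPM in MC38 (log2 1.14 ± 0.38, adjusted p = 0.028), a call lost without B16 tumor 1 (log2 0.90, adjusted p = 0.11), B16 tumor 3 (log2 0.92, adjusted p = 0.10), MC38 tumor 1 (log2 1.19, adjusted p = 0.053) or MC38 tumor 3 (log2 1.00, adjusted p = 0.075). *Ifnb1* was not tested and reached at most 0.454 CPM. The receptor chain *Ifngr1* was higher in MC38 (log2 1.10 ± 0.12, adjusted p = 1.0e-04), though not past the threshold without B16 tumor 1 (log2 0.99, adjusted p = 0.0011), and its partner *Ifngr2* was 98.6, 108 and 97.9 CPM in B16 and 51.8, 53.7 and 63.7 CPM in MC38 (log2 -0.85 ± 0.11, adjusted p = 2.8e-04), not called. The type I receptor chain *Ifnar1* was higher in B16, at 179, 189 and 166 CPM against 75.9, 70.4 and 75.5 CPM (log2 -1.27 ± 0.09, adjusted p = 1.4e-05), and so was the kinase *Tyk2* that binds it (log2 -1.06 ± 0.12, adjusted p = 1.7e-04), except without MC38 tumor 2 (log2 -0.98, adjusted p = 4.0e-04).

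The gamma-activated site (TTCNNNGAA) and the interferon-stimulated response element (GAAA on either side of any 2 bases) are motifs known from the promoters of interferon targets. In the same 250-base windows, on both strands, 7.02% of all windows held the former and 2.98% the latter. Of 7 interferon-gamma targets called higher in MC38 that had an entry, 1 held the gamma-activated site and 5 the response element. Of 7 targets that were not called, 5 held each. Among type I targets, the response element was found in 6 of 12 called genes and 1 of 4 uncalled genes. Both motifs were thus found before called and uncalled genes. Shown are the called interferon-gamma targets *Cxcl10* and *Gbp5*, and *Oas3*, the type I target with the widest gap, which was chosen after its values were seen. *Ubd*, with a wider gap than *Cxcl10*, held neither motif. Capitals mark the response element 213 to 204 bases before the start of *Cxcl10* and 75 to 66 before that of *Oas3*. In *Gbp5* they mark gamma-activated sites at 245 to 237 and 52 to 44 bases and a response element on the other strand at 165 to 156.
Cxcl10 (chr5:92348890-92349139, minus strand): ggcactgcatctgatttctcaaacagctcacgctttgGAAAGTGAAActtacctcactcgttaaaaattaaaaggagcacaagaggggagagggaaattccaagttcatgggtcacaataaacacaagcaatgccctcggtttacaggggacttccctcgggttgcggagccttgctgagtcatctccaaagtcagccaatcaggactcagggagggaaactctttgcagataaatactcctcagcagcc
Gbp5 (chr3:142496684-142496933, plus strand): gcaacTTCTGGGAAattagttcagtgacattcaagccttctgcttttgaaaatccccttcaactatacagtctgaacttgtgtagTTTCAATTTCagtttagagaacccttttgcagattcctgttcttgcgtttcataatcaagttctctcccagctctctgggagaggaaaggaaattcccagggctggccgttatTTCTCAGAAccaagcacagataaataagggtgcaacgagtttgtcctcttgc
Oas3 (chr5:120777660-120777909, minus strand): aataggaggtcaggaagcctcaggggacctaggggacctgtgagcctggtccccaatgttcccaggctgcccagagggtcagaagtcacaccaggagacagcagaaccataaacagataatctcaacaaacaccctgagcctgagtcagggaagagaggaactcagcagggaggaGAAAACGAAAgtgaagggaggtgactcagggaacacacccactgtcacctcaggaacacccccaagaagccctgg
These matches are descriptions of sequence, and factor binding was not measured.

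**Figure D4:**
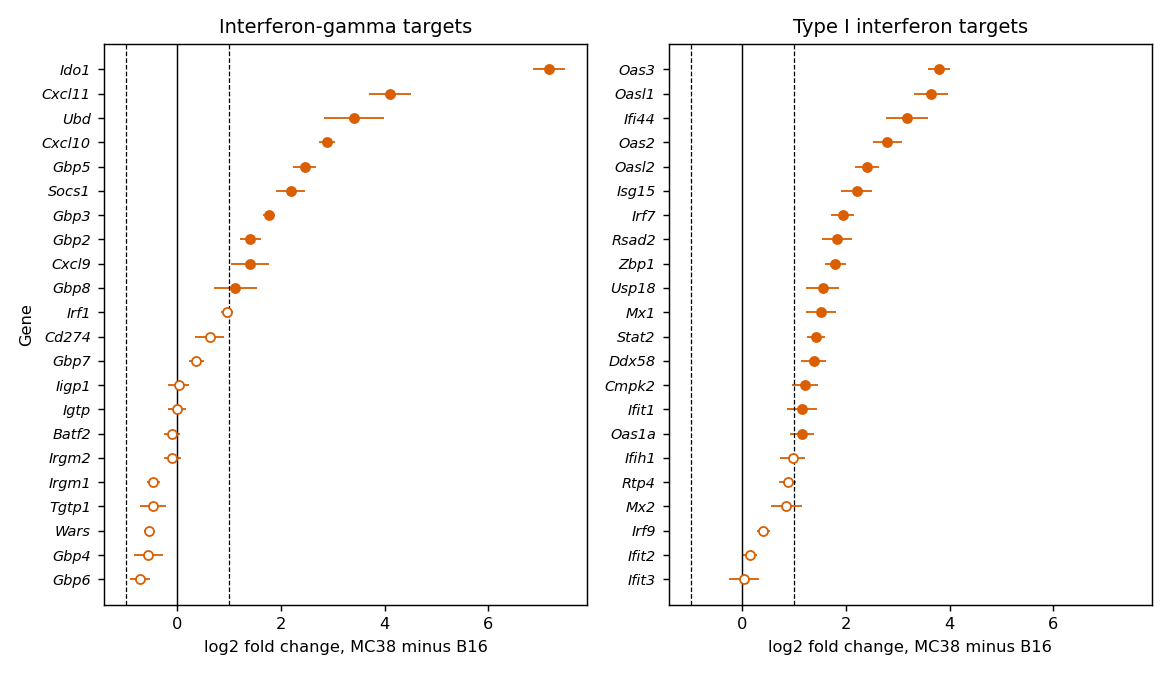
Points give the log2 fold change (MC38 minus B16, x axis) of the interferon-gamma targets (left) and type I interferon targets (right) reported here, and bars the standard error. Filled points were called, open points were not, and dashed lines mark a log2 fold change of 1 either way. Targets range from *Ido1* at 7.18 to *Gbp6* at -0.72 on the left and from *Oas3* at 3.79 to *Ifit3* at 0.028 on the right.

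Antigen presentation genes were called in part. Of 18 MHC class I genes, 5 (27.8%, against 20.1% of all tested genes) were higher in MC38. All 3 MC38 tumors lay above all 3 B16 tumors for 13 of the 18, and for 36.9% of all tested genes. *Tapbp*, which loads peptides onto class I molecules, was 411, 665 and 444 CPM in B16 tumors 1 to 3 and 1580.1, 2009 and 1700.0 CPM in MC38 tumors 1 to 3 (log2 1.80 ± 0.20, adjusted p = 1.3e-04). *H2-K1*, a class I heavy chain, was 1514, 2342 and 1240.5 CPM in B16 and 3551, 4243 and 3796 CPM in MC38 (log2 1.19 ± 0.23, adjusted p = 0.0024), a call lost without B16 tumor 3 (log2 0.99, adjusted p = 0.0074). *B2m*, the light chain and the list's member with the highest RPKM, was 2028, 2656 and 1555 CPM and 1785, 2044 and 1949.7 CPM (log2 -0.11 ± 0.19, adjusted p = 0.62). Without B16 tumor 1 or B16 tumor 3, 2 class I genes were called, and 3 without MC38 tumor 2. Class I heavy chain genes are close copies of each other, so reads may have been split among them. Of 12 class II genes, 2 (16.7%, against 20.1% of all tested genes) were higher in MC38. They were the protease *Ctss* (log2 1.504 ± 0.24, adjusted p = 1.0e-03) and *H2-Oa* (log2 1.60 ± 0.38, adjusted p = 0.0064). The chain *H2-Ab1* (log2 0.50 ± 0.37, adjusted p = 0.27), *Cd74* (log2 0.58 ± 0.38, adjusted p = 0.21) and the master regulator *Ciita* (log2 -0.052 ± 0.29, adjusted p = 0.89) overlapped between the models. Without B16 tumor 2, 4 class II genes were called, *Cd74* among them (log2 1.02, adjusted p = 0.038).

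Checkpoint genes showed a similar split between members. Of 13 receptors, 4 (30.8%, against 20.1% of all tested genes) were higher in MC38. They were *Cd244* (log2 2.31 ± 0.47, adjusted p = 0.0032), *Tnfrsf9* (log2 1.98 ± 0.27, adjusted p = 3.9e-04), *Havcr2* (log2 1.90 ± 0.24, adjusted p = 2.6e-04) and *Icos*. *Havcr2*, which encodes TIM-3, was 4.99, 8.46 and 5.21 CPM in B16 tumors 1 to 3 and 24.6, 19.7 and 25.9 CPM in MC38 tumors 1 to 3, without overlap. *Pdcd1*, which encodes PD-1, was 5.30, 16.1 and 2.62 CPM in B16 and 11.01, 6.02 and 9.61 CPM in MC38 (log2 0.15 ± 0.59, adjusted p = 0.84), with B16 tumor 2 the highest of the 6 tumors. *Ctla4* (log2 0.47 ± 0.39, adjusted p = 0.32) and *Lag3* (log2 0.67 ± 0.34, adjusted p = 0.12) were not called either. Without B16 tumor 2, 8 receptors were called, *Pdcd1* (log2 1.16, adjusted p = 0.046) and *Lag3* (log2 1.13, adjusted p = 0.0083) among them. Of 15 tested ligands, 6 (40%) were higher in MC38. *Cd47*, which holds back phagocytosis, was 64.3, 66.7 and 54.2 CPM in B16 and 158, 199 and 170.1 CPM in MC38 (log2 1.51 ± 0.13, adjusted p = 3.1e-05). *Vsir*, which encodes VISTA, was 18.8, 39.4 and 34.7 CPM and 102, 62.9 and 121 CPM (log2 1.61 ± 0.31, adjusted p = 0.0025), also without overlap. *Cd274*, which encodes PD-L1, was 52.2, 68.5 and 35.2 CPM and 100.3, 54.0 and 85.6 CPM (log2 0.62 ± 0.28, adjusted p = 0.087), and *Lgals9*, the ligand with the highest RPKM, was not called (log2 -0.19 ± 0.12, adjusted p = 0.20).

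Genes of metabolite pathways that are known to restrain T cells were higher in MC38 for 9 of 14 tested members and in B16 for none. *Tdo2*, which breaks down tryptophan (log2 -0.94 ± 0.28, adjusted p = 0.019), was called higher in B16 without B16 tumor 1 (log2 -1.02, adjusted p = 0.038) or B16 tumor 3 (log2 -1.15, adjusted p = 0.011). *Ptges* and *Ptgs2* act in turn in the synthesis of prostaglandin E2. *Ptges* was 1.82, 1.87 and 2.77 CPM in B16 tumors 1 to 3 and 102, 114 and 93.4 CPM in MC38 tumors 1 to 3 (log2 5.52 ± 0.18, adjusted p = 4.9e-07), and *Ptgs2* was 1.56, 4.59 and 4.88 CPM in B16 tumors 1 to 3 and 138, 48.4 and 99.1 CPM in MC38 tumors 1 to 3 (log2 4.61 ± 0.48, adjusted p = 9.9e-05). Both were far apart between the models, and MC38 tumor 2 was the lowest MC38 tumor for *Ptgs2*. *Ido2*, which neighbours *Ido1* and is related to it, was 0.260, 0.792 and 0.308 CPM in B16 and 35.2, 40.5 and 28.8 CPM in MC38 (log2 6.13 ± 0.34, adjusted p = 4.0e-06). *Nos2*, the inducible nitric oxide synthase, was 13.4, 27.3 and 10.9 CPM and 169, 51.0 and 107 CPM (log2 2.66 ± 0.49, adjusted p = 0.0019). Of the adenosine genes, *Nt5e*, which makes adenosine, was higher (log2 1.87 ± 0.29, adjusted p = 8.0e-04) and so was *Ada*, which removes it (log2 2.51 ± 0.13, adjusted p = 3.5e-06). *Arg1*, the list's member with the highest RPKM, was 42.1, 47.9 and 30.4 CPM in B16 and 210.2, 17.2 and 53.9 CPM in MC38 and was not called (log2 1.23 ± 0.75, adjusted p = 0.18), and the 3 MC38 tumors lay on both sides of the B16 tumors. Without MC38 tumor 2 it was called (log2 1.72, adjusted p = 0.014).

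Stromal genes were higher in MC38. Of 26 fibroblast and collagen genes, 23 were higher in MC38 and 1 in B16, with a median of 3.03. *Col1a1*, a chain of the main fibrillar collagen and the list's member with the highest RPKM, was 188, 553 and 753 CPM in B16 tumors 1 to 3 and 6259, 1111 and 6297 CPM in MC38 tumors 1 to 3 (log2 3.19 ± 0.72, adjusted p = 0.0053). MC38 tumor 2 was the lowest MC38 tumor and B16 tumor 1 the lowest B16 tumor, and the models did not overlap. *Pdgfra*, a receptor on fibroblasts, was 1.87, 3.07 and 6.62 CPM and 65.4, 55.0 and 63.6 CPM (log2 3.91 ± 0.37, adjusted p = 5.5e-05). The type VI collagen gene *Col6a1* was 48.2, 72.1 and 71.4 CPM and 866, 985 and 751 CPM (log2 3.76 ± 0.19, adjusted p = 2.9e-06). These genes were closer together among MC38 tumors than *Col1a1*. The gelatinase *Mmp2* was 7.64, 16.6 and 35.5 CPM and 296, 159 and 349.8 CPM (log2 3.71 ± 0.53, adjusted p = 5.0e-04). *Postn*, which encodes periostin, was 14.8, 33.8 and 35.7 CPM and 352, 139.7 and 548 CPM (log2 3.60 ± 0.53, adjusted p = 5.9e-04). *Fap*, the activation marker of fibroblasts, was low, at 0.312, 1.33 and 1.46 CPM and 5.22, 1.49 and 8.03 CPM (log2 2.14 ± 0.67, adjusted p = 0.023), and its call was lost without B16 tumor 1 (log2 1.73, adjusted p = 0.069), B16 tumor 2 (log2 2.26, adjusted p = 0.064), MC38 tumor 1 (log2 2.10, adjusted p = 0.051) or MC38 tumor 3 (log2 1.60, adjusted p = 0.065). *Fbln1*, a matrix glycoprotein, was higher in B16, at 323, 330.4 and 350.3 CPM against 37.9, 14.1 and 77.3 CPM (log2 -2.97 ± 0.51, adjusted p = 0.0014).

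Skeletal muscle genes were present in MC38 tumors and nearly absent from B16 tumors. All 10 were higher in MC38, with a median of 8.25. Those that passed the filter on low counts through MC38 alone had to differ, so this count is a description. The summed level of the 10 genes was 7.38, 7.51 and 7.45 CPM in B16 tumors 1 to 3 and 1234, 450.1 and 3854 CPM in MC38 tumors 1 to 3. *Acta1*, skeletal actin, was 1.82, 1.49 and 1.64 CPM in B16 tumors 1 to 3 and 451, 197 and 1497 CPM in MC38 tumors 1 to 3 (log2 8.75 ± 0.92, adjusted p = 9.9e-05), and *Ckm*, muscle creatine kinase, was 159, 55.7 and 473 CPM in MC38 and at most 1.62 CPM in B16. MC38 tumor 3 was the highest and MC38 tumor 2 the lowest for both. The same order of MC38 tumors held for *Des*, the filament desmin, at 5.09, 5.86 and 5.55 CPM in B16 and 67.1, 60.9 and 385 CPM in MC38 (log2 4.94 ± 0.80, adjusted p = 0.0010), and for *Tpm2*, tropomyosin, at 4.83, 4.37 and 4.57 CPM and 149.7, 105.06 and 268 CPM (log2 5.24 ± 0.38, adjusted p = 1.4e-05). These are the members of the myofibroblast and pericyte list that differed most, and muscle fibres are known to express both. The part of muscle tissue in these and the other stromal results was not tested. Other pericyte genes did not follow, as *Rgs5* was 29.8, 53.0 and 33.8 CPM and 35.2, 17.4 and 69.1 CPM (log2 0.050 ± 0.45, adjusted p = 0.93) and *Mcam*, the list's member with the highest RPKM, was not called (log2 -0.94 ± 0.25, adjusted p = 0.011). *Mcam* was lower in MC38 without B16 tumor 1 (log2 -1.17, adjusted p = 0.0073) or MC38 tumor 3 (log2 -1.25, adjusted p = 0.0012). Of 14 tested members of that list 5 (35.7%, against 20.1% of all tested genes) were higher in MC38. The number was 2 without B16 tumor 2 or B16 tumor 3, and 3 without B16 tumor 1, MC38 tumor 1 or MC38 tumor 3.

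Few endothelial genes were called. Of 18, 2 (11.1%) were higher in MC38 and 1 (5.56%) in B16, with a median of 0.50. The shares over all tested genes were 20.1% and 15.1%. *Cdh5*, the cadherin of endothelial junctions, was 32.9, 59.1 and 35.8 CPM in B16 tumors 1 to 3 and 77.7, 112 and 145 CPM in MC38 tumors 1 to 3 (log2 1.38 ± 0.28, adjusted p = 0.0032). *Pecam1*, which encodes CD31, was not called (log2 0.86 ± 0.30, adjusted p = 0.036) except without B16 tumor 2 (log2 1.10, adjusted p = 0.025) or MC38 tumor 2 (log2 1.02, adjusted p = 0.018), nor was the VEGF receptor *Kdr* (log2 -0.077 ± 0.27, adjusted p = 0.81). *Eng*, a TGF-β co-receptor also known in melanoma cells, was higher in B16, at 476, 569 and 539 CPM against 89.2, 92.4 and 133 CPM (log2 -2.34 ± 0.17, adjusted p = 1.5e-05). *Lyve1*, of lymphatic vessels and some macrophages, was called (log2 2.04 ± 0.77, adjusted p = 0.047), but not when any 1 tumor other than B16 tumor 3 was left out, with log2 1.57, adjusted p = 0.12 without B16 tumor 1, log2 1.53, adjusted p = 0.13 without B16 tumor 2, log2 2.07, adjusted p = 0.083 without MC38 tumor 1, log2 1.83, adjusted p = 0.082 without MC38 tumor 2 and log2 2.20, adjusted p = 0.051 without MC38 tumor 3. The number of endothelial genes higher in MC38 was 1 without B16 tumor 1 or MC38 tumor 3 and 4 without MC38 tumor 2, and that of genes higher in B16 was 2 without MC38 tumor 1 or MC38 tumor 3.

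TGF-β is kept in the matrix by latent binding proteins and acts on fibroblasts and T cells. Of 16 tested genes of its ligands, receptors and targets, 9 were higher in MC38 and 1 in B16, with a median of 2.04. *Ltbp1*, a latent binding protein, was 6.91, 7.22 and 9.14 CPM in B16 tumors 1 to 3 and 175, 222 and 184 CPM in MC38 tumors 1 to 3 (log2 4.62 ± 0.16, adjusted p = 5.4e-07). The ligand *Tgfb3* was 12.4, 14.6 and 10.3 CPM in B16 and 48.2, 61.8 and 82.6 CPM in MC38 (log2 2.37 ± 0.23, adjusted p = 5.8e-05), with no overlap. *Tgfb1*, with the highest RPKM of the list, was 99.5, 144 and 101.20 CPM and 183, 198 and 203 CPM and was not called (log2 0.76 ± 0.15, adjusted p = 0.0029). The co-receptor *Tgfbr3* was higher in MC38 (log2 2.80 ± 0.22, adjusted p = 2.1e-05), as was *Itgb8*, an integrin chain that releases the ligand (log2 2.90 ± 0.45, adjusted p = 7.6e-04). Its partner chain *Itgav* was higher in B16, at 403, 327 and 277 CPM against 140.2, 114 and 117 CPM (log2 -1.44 ± 0.16, adjusted p = 1.2e-04).

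**Figure D5:**
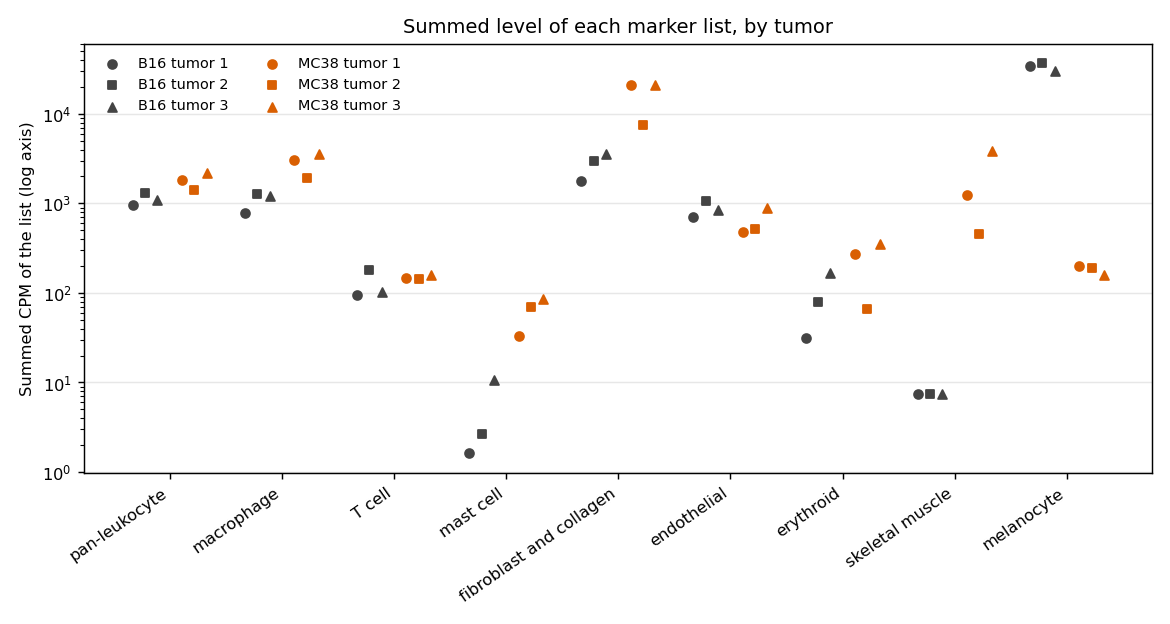
Summed CPM of 9 marker lists (log axis) in each tumor, with B16 in grey and MC38 in orange and 1 symbol per tumor number. Fibroblast, mast cell and skeletal muscle sums are higher in all 3 MC38 tumors than in any B16 tumor, with muscle at 1234, 450.1 and 3854 CPM in MC38 tumors 1 to 3, while T cell, endothelial and erythroid sums overlap between the models.

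Lists for other tissues around a subcutaneous tumor gave smaller values. Keratinocyte genes summed to at most 3.95 CPM in any tumor, and *Krt5* and *Krt14* reached at most 0.0504 CPM and 0.705 CPM. The 2 keratinocyte genes that were tested, *Krt10* (log2 2.94 ± 0.56, adjusted p = 0.0022) and *Trp63* (log2 2.92 ± 0.57, adjusted p = 0.0024), were higher in MC38. Of 7 tested adipocyte genes, *Plin4* alone was called (log2 2.06 ± 0.64, adjusted p = 0.022), and this was lost without B16 tumor 1 (log2 1.95, adjusted p = 0.071) or B16 tumor 2 (log2 1.83, adjusted p = 0.087). None of 5 tested erythroid genes was called, and *Hbb-bs* was 14.2, 38.9 and 82.4 CPM in B16 tumors 1 to 3 and 142, 33.9 and 181 CPM in MC38 tumors 1 to 3 (log2 1.37 ± 0.70, adjusted p = 0.12). MC38 tumor 2 was the lowest MC38 tumor for it, and without that tumor all 5 were called higher in MC38, *Hbb-bs* with log2 1.81, adjusted p = 0.020. Without B16 tumor 3, 2 were called, *Hbb-bs* among them (log2 2.13, adjusted p = 0.048). *Xist*, transcribed in female cells, was 30.3, 39.1 and 20.1 CPM in B16 and 86.6, 36.7 and 74.7 CPM in MC38 (log2 1.15 ± 0.34, adjusted p = 0.019). Its call was lost without B16 tumor 1 (log2 1.10, adjusted p = 0.064), B16 tumor 3 (log2 0.91, adjusted p = 0.067) or MC38 tumor 1 (log2 0.90, adjusted p = 0.063). Y-linked genes reached at most 0.312 CPM in any tumor.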

How the data were processed

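RNA of 3 B16 and 3 MC38 tumor fragments was sequenced after poly(A) selection, without strand information. Per the submitters' processing notes and the methods, reads were aligned to mm10 with STAR 2.5.0c and counted with HOMER, and the values that the authors deposited are expected counts for each RefSeq transcript, which come in steps of 0.5. From there, counts were rounded up to whole numbers for testing, each of 24940 symbols was represented by the transcript with most counts over the 6 tumors, and 69.4% of symbols had 1 transcript. Rows without a gene (2, with 2.1e-05% of counts) were left out, and 3 columns that match no sample were not used, nor was the table of sorted fibroblasts. *Flg* and *Ahsp* were not analysed here, and values of some list members are not reported here.

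edgeR 4.0.16 (limma 3.58.1, R 4.3.3) kept 14791 symbols by filterByExpr, scaled by TMM and fitted the 6 tumors without covariates. The study used DESeq2, which here is the alternative (DESeq2 1.42.0). Tables and plots were made with Python 3.11.15, numpy 2.4.6, pandas 2.3.3 and matplotlib 3.10.9. Simulated counts of 14652 genes for MC38 against B16 were judged by an adjusted p under 0.05 alone, without the fold of the call rule. There edgeR and DESeq2 each found 78 of 100 genes changed by a log2 fold of 1. Of 100 changed by 2 they found 97, and 4 and 13 unchanged genes passed. The simulation gave all genes a common spread and changed none of the genes with few counts, so recovery under the call rule was not tested. RPKM are CPM per kilobase of transcript. Counting error alone is covered by the floor of 3 counts.

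Gene lists (39 lists, 591 genes, 589 in the table and 524 tested) and members were chosen with earlier results of these data known. Named are *Ptprc*, *Gzmb*, the 12 called genes of at least 10 CPM without overlap with the widest gap each way, and, per list, up to 4 called members each way, the member with the highest RPKM and defining members. Further members, such as *Gapdh*, *Wnt7b*, *Wars* and *Mtap*, were named after their values were seen. Promoter windows come from RefSeq (GRCm38.p6), and list members without an entry there, *Ido1*, *Cxcl11*, *Gpr143*, *Mlana* and *Slc45a2* among them, were not searched. Alternatives left out each tumor, used the replicate number as a block, no filter on low counts, the transcript chosen over 15 tumors, a fit of all 15 tumors, total-count scaling, DESeq2 or the adjusted p alone.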

Additional observations from a re-analysis of the deposited data

How the results depend on the processing

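Of 5212 genes called, 4155 (79.7%) kept their call in all 12 alternatives other than the adjusted p alone, which gave 4974 genes higher in MC38 and 4615 lower, against 2979 and 2233, since no fold was then required. Leaving out 1 tumor in turn gave 2755 to 3212 higher and 2230 to 2351 lower, no filter 3504 and 2389, the fit of 15 tumors 3119 and 2256, and DESeq2 2877 and 2197. Total-count scaling moved the median log2 fold change of all genes by 0.12, from 0.04 to 0.16, gave 3327 higher and 1951 lower, and raised the share of calls that were higher in MC38 from 57.2% to 63.0%. Relative to pan-leukocyte counts 1893 genes were higher and 5042 lower, or 1803 to 2018 and 4344 to 6221 with 1 tumor left out. With *Ptprc* as the library size these were 1126 and 10269, and with the sum over 17 genes, an alternative chosen after seeing the data, 1356 and 8611, since 3 genes that were not higher in MC38 leave the reference. These counts cover all genes and were read for leukocyte lists alone. Replicate numbers are shared by the models but tie no tumors together. The correlations of same-numbered tumors' deviations were -0.03, -0.14 and 0.10, and not every tumor correlated best with its own number. With the replicate number as a block 2888 genes were higher and 2207 lower (relative to leukocyte counts 1865 and 5114), and *Fap* (adjusted p = 0.054), *Icos* (0.057), *Xist* (0.059), *Ncr1* (0.084) and *Krt8* (0.13) were not called.

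Calls of *Klrb1c* (adjusted p = 0.058), *Icos* (0.063), *Lyve1* (0.066), *Ncr1* (0.072), *Plin4* (0.081), *Prf1* (0.12), *Cxcl9* (0.13), *Gzmb* (0.13) and *Ifng* (0.16) were lost in the fit of 15 tumors, whose spread is taken from 5 models. Under DESeq2, *Ncr1* (0.067) and *Lyve1* (0.071) were not called and *Krt8* got no adjusted p. Under total-count scaling, *C4b* (log2 -0.96) and *Tyk2* (log2 -0.94) fell short of the threshold, while *Ccr8*, *Lyz2*, *Wnt7b* and *Zbtb46* passed it. Some uncalled genes changed sign when 1 tumor was left out, and the cause was not tested. The log2 fold change ran from -0.41 to 0.53 for *Cd3e*, from -0.29 to 0.066 for *B2m*, from -0.35 to 0.17 for *Ciita*, from -0.020 to 0.77 for *Ctla4*, from -0.030 to 0.37 for *Cyba*, from -0.24 to 0.20 for *Ifit3*, from -0.15 to 0.18 for *Igtp*, from -0.15 to 0.19 for *Iigp1*, from -0.37 to 0.14 for *Kdr*, from -0.30 to 1.16 for *Pdcd1*, from -0.57 to 0.41 for *Rgs5*, from -0.10 to 1.21 for *Zap70* and from -0.18 to 1.72 for *Arg1*. Under the block the sign turned for *Cd3e* (0.10), *Igtp* (0.021) and *Rgs5* (-0.085), and under total-count scaling for *B2m* (0.012), *Cd3e* (0.054), *Ciita* (0.066), *Igtp* (0.11) and *Kdr* (0.043).

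Depth limits genes at a few counts per library. A gene that passes the filter on low counts through 1 model alone has to differ between the models. This bears on the melanocyte, neutrophil, B cell, mast cell, keratinocyte and muscle lists.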
